A study of Drosophila melanogaster with 46 samples.

Results

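Flies defend themselves with secreted antimicrobial peptides, with lysozymes and with receptors that recognise microbial cell walls. The arrays carried 25 elements for such genes out of 15732, that is 50 spots out of 31464, and their RNA was compared between the sexes, the gonads and several mutants of Drosophila melanogaster. An element here is a probe spotted in duplicate, and the values of both spots were averaged. Members were chosen by gene symbol alone: symbols that start with PGRP-, GNBP, Att, Cec, Dpt, Drs, Bom or Lys followed by a capital or digit, and the symbols Def, Dro, Mtk and Anp. These elements stand for 24 genes. They are 5 classical peptides (AttD, DptB, Def, Drs and Mtk), 7 elements for Bomanin peptides (BomBc2 on 2 elements, BomBc3, BomS2, BomS4, BomS6 and BomT3) and 3 lysozymes (LysE, LysS and LysX). A further 4 elements stand for short recognition proteins (PGRP-SB1, PGRP-SB2, PGRP-SC2 and 1 element that the probe table lists for both PGRP-SC1a and PGRP-SC1b), 4 for long ones (PGRP-LA on 2 elements, PGRP-LB and PGRP-LE) and 1 for GNBP3. The last, LysRS, encodes lysyl-tRNA synthetase and shares only its letters with the lysozymes, so it is left out of the counts and given apart. Other genes of these families, such as PGRP-SA, PGRP-LC, GNBP1, AttA and the Cecropins, were not analysed here.

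Flies have no antibodies, and their humoral defence runs mainly through the Toll and Imd pathways. GNBP3 binds fungal glucans and starts the protease cascade that activates Toll, whose targets include the antifungal peptide Drs (Drosomycin) and the Bomanins, a family of short secreted peptides needed for Toll-dependent survival of infection. The Imd pathway answers peptidoglycan of Gram-negative bacteria, sensed by receptors such as PGRP-LE, and drives the Diptericin DptB and the Attacin AttD. Metchnikowin (Mtk) answers both pathways and Defensin (Def) acts mainly on Gram-positive bacteria. PGRP-LB, PGRP-SB1, PGRP-SC2 and the SC1 proteins are amidases that cut peptidoglycan, and PGRP-LB and PGRP-SC proteins thereby restrain Imd. The lysozymes of the Lys cluster cut peptidoglycan too and are known mostly as digestive enzymes of the gut. The fat body is the main source of circulating peptides, while the midgut, the blood cells and the epithelia of the genital tract also make some of them. The labels name no infection or other immune challenge.

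The flies were adults of 3 to 5 days kept at 25 C. Wild-type females, males, ovaries, testes and carcasses left after the gonads were removed came from a y[1]w[67c] strain, which some label fields write y[1]w[1]. Flies without a germline were tud[1] bw[1]sp[1] offspring of mothers of that genotype, here called tudor flies. XX flies of genotype w[67c]/w[67c];tra2[B]/TRIX, called XX tra2 here, carry mutant transformer 2, a splicing regulator without which XX flies are known to develop as males in body. Their siblings w[67c]/BsY;tra2[B]/TRIX are called XY tra2. XX flies of genotype +/+;dsx[M+R45]/dsx[swe], called XX dsx, carry mutant doublesex, the gene at the end of the same pathway. All 10 accessory gland markers were higher in XX tra2 flies than in females and 0 of 10 were lower in XX dsx flies than in males, while 6 of 8 testis markers were lower in XX than in XY tra2 flies and 6 of 8 lower in XX dsx flies than in males. The mutants differ from the wild type in genetic background as well as in the named gene, and these cannot be told apart. Each array set 2 RNAs against each other, one labelled with Cy3 and the other with Cy5, and 15 comparisons were made on 44 arrays, 7 of them on 4 arrays and 8 on 2. The labels do not say whether repeated arrays used separate extracts, so p-values measure the spread between arrays, which may be technical.

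Values are log ratios as the authors deposited them, turned so that the first sample named is the numerator. Neither the base of the logarithm nor the numerator is stated. They were taken as log2 and as channel 1 over channel 2, a direction that is likely rather than settled: Yp2, a yolk protein gene, was then 4.02 higher in females than in males, and betaTub85D, the testis tubulin, was at -3.34 in ovary over testis. Between 4442 and 14881 elements were used per array, with a median of 12377. The lowest counts, 4442 on array 8b and 4549 on 7b, follow the removal of values described below, and the next was 7994 on array 3b. The labelled tissues carried their markers: 10 of 10 ovary markers were higher in ovary than in testis, and 8 of 8 testis markers were higher in testis than in male carcass. The testis RNA also held accessory gland genes, of which 9 of 9 were higher than in male carcass. In female against male carcass, 8 of 9 ovary markers were higher (median 1.22) and 6 of 8 testis markers lower (median -1.08). On 2 of the 4 arrays of ovary against female carcass, 7b and 8b, the values of the first of 2 slides ran opposite to those of arrays 7a and 8a and were left out. Each ratio given as fitted is a value from 1 limma model over all 44 arrays, with a standard error (SE) from a variance pooled over all comparisons, and "called" means a Benjamini-Hochberg adjusted p under 0.05 over all elements of that comparison. Over all elements tested, the median ratio lay between -0.013 and 0.015 in each of the 15 comparisons, as the centring of each array sets it.

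**Figure D1:**
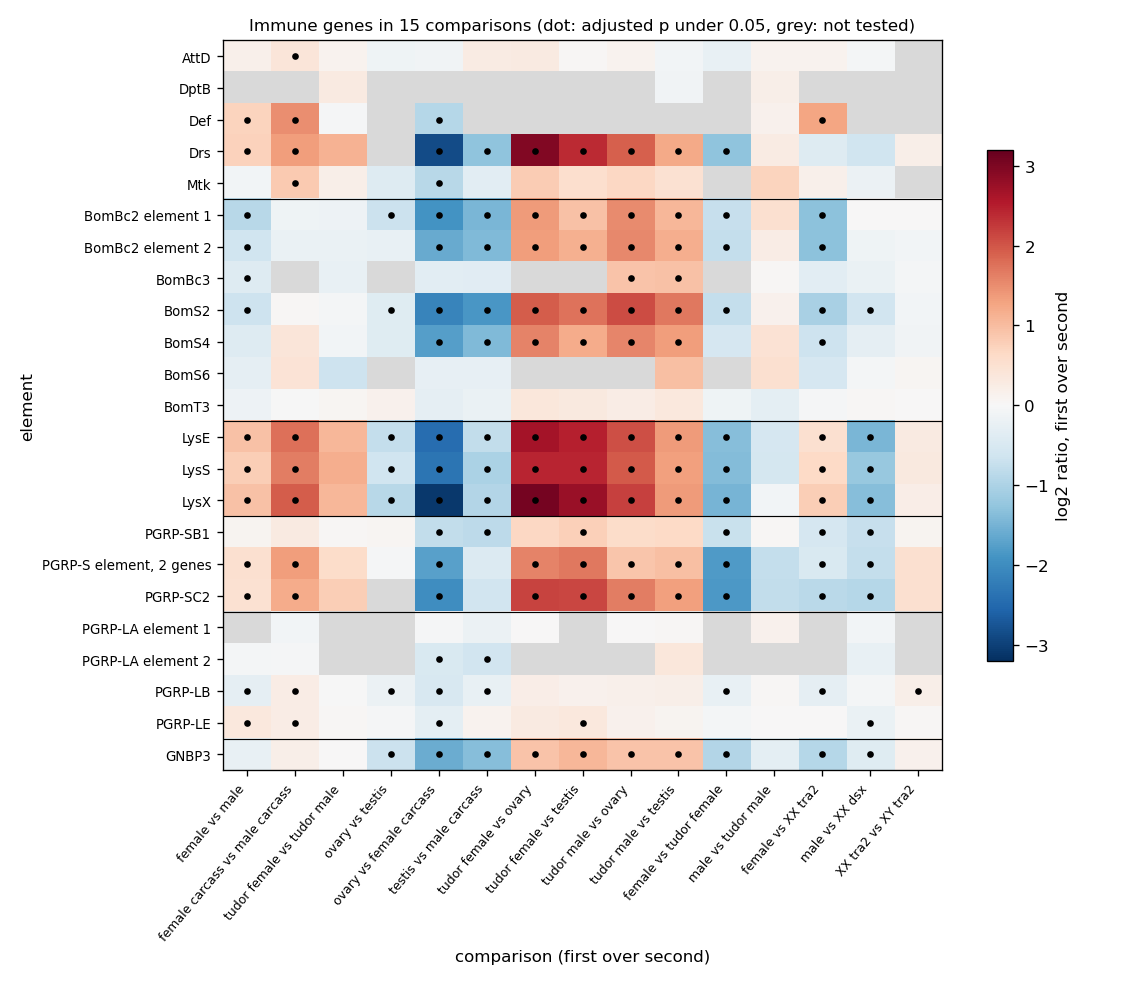
Fitted log2 ratio (colour, first sample over second) of 23 elements, all but LysRS and PGRP-SB2, in the 15 comparisons. A dot marks an adjusted p under 0.05 and grey a comparison with fewer than 2 measured arrays; the lysozymes, PGRP-SC2, Drs and the Bomanins BomBc2, BomS2 and BomS4 carry most of the colour, while AttD, BomT3 and PGRP-LA stay pale throughout.

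The question of the first comparisons was which immune genes differ between the sexes, in whole flies, without gonads and without a germline. In carcasses, 11 of 21 tested elements were higher in females and 0 were lower, where 16.6% of all elements were called, 8.91% higher and 7.65% lower. Their median log2 ratio was 0.39. All 3 lysozymes, Drs, PGRP-SC2 and the 2-gene PGRP-S element were more than 2-fold higher in females, and 0 of 6 Bomanin elements was called by limma or had an unadjusted p under 0.05. The values of the Bomanin elements lay between -0.21 and 0.43.

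LysX read 1.61, 1.77, 2.97 and 1.37 (log2, female over male carcass) on arrays 3a, 3b, 4a and 4b. Its fitted ratio was 1.93 ± 0.255 (SE, n = 4 arrays, limma adjusted p 2.16e-06), a 3.82-fold difference. All 4 arrays lay above 0, with array 4a far above the others. LysE read 1.59, 1.53, 2.76 and 1.14 on the same arrays (1.75 ± 0.215, limma adjusted p 6.16e-07). LysS read 1.82, 1.00, 2.68 and 1.08 (1.65 ± 0.239, limma adjusted p 9.14e-06). The 3 lysozyme genes lie in 1 cluster on chromosome arm 3L. Their sequences were not compared, so their probes may have bound each other's RNA, and they are not taken as 3 independent measurements.

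The amidase genes of the PGRP-SC group went the same way. PGRP-SC2 read 1.28, 1.02, 1.81 and 0.66 in carcasses (1.19 ± 0.186, limma adjusted p 3.97e-05), and the 2-gene PGRP-S element 1.35, 1.17, 1.80 and 1.04 (1.34 ± 0.192, limma adjusted p 5.84e-06). Every array of both lay above 0.6. PGRP-SB1, another amidase gene, read -0.21, 0.20, 1.51 and -0.37 and was not called. Among the long forms, PGRP-LB was 0.24 ± 0.056 higher (limma adjusted p 0.00343), above 0 on 4 of 4 arrays, and PGRP-LE 0.24 ± 0.078 higher (limma adjusted p 0.03), above 0 on 3 of 4. Both PGRP-LA elements, for a protein that takes part in Imd signalling, and GNBP3 were not called in carcasses, with values of -0.08, -0.03 and 0.18.

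Of the classical peptides, Drs read 0.83, 0.91, 2.54 and 1.09 in carcasses (1.34 ± 0.241, limma adjusted p 0.000193), above 0 on every array and highest by far on array 4a. Def was higher by 1.48 ± 0.333 (n = 3 arrays, limma adjusted p 0.00844) with array values of 0.59, 0.78 and 2.85. Mtk was higher by 0.84 (0.08, 2.24 and 0.23) and AttD by 0.39 on 2 arrays (0.02 and 0.76). Array 4a supplied the highest value of all 4 peptides. Without it the count in carcasses was 7 of 17 elements, where 7.76% of all elements were called. Def at 0.73, Mtk at 0.16 and PGRP-LE at 0.12 were then not called, AttD was not tested, and LysX at 1.60, LysE at 1.41, LysS at 1.31, the 2-gene element at 1.21, Drs at 1.00, PGRP-SC2 at 0.99 and PGRP-LB at 0.25 were. Array 4a also had a wider spread over all elements, with a median absolute log2 ratio of 0.293 against 0.146 to 0.177 on the other arrays of this comparison. Whether that spread bears on the peptide values was not tested.

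Markers of the midgut moved with the lysozymes and the PGRP-SC genes in carcasses: 11 of 11 midgut markers were higher in females, with log2 ratios from 1.23 to 2.19 and a median of 1.93. Of 8 fat body markers, yolk protein genes among them, 6 were higher (median 1.40), and of 5 blood cell markers 0 were called (0.02 to 0.31). Ratios give no level, so the amount of these markers in each sample is not known, and their part in the results was not tested. In bulk RNA, fewer cells of a type and less RNA per cell cannot be told apart.

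In whole flies the group was divided. Of 21 elements, 8 were higher in females and 5 lower, where 55.4% of all elements were called, 28.2% higher and 27.3% lower. The 3 lysozymes, Drs, Def, the 2 PGRP-SC elements and PGRP-LE were higher, and both BomBc2 elements, BomS2, BomBc3 and PGRP-LB were lower. The median of all 21 was -0.06. The share of called elements was thus close to that of the whole array.

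BomBc2 read -1.34, -1.40, 0.24 and -1.03 on its first element in arrays 1a, 1b, 2a and 2b (-0.88 ± 0.165, limma adjusted p 4.17e-05), and -0.70, -0.89, 0.05 and -1.01 on its second (-0.64 ± 0.142, limma adjusted p 0.000314). Both elements put 3 arrays well below 0 and array 2a slightly above it. BomS2 lay below 0 on 4 of 4 arrays, at -0.31, -0.59, -0.81 and -0.94 (-0.66 ± 0.153, limma adjusted p 0.000462). BomS4 read -0.78, -0.86, 0.62 and -0.68 and was not called (limma adjusted p 0.0638). BomBc3 read -0.93, -0.05 and -0.01 on arrays 1a, 2a and 2b (-0.41 ± 0.158, limma adjusted p 0.0339). It lost its call without array 1a (-0.25) and without array 2a (-0.47). BomBc2, BomS2, BomS4 and BomS6 are neighbours on chromosome arm 2R, while BomBc3 and BomT3 lie on 3R. BomT3 was not called in any comparison, whole flies included, and its fitted values ranged from -0.32 to 0.37.

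LysX read 0.43, 0.60, 2.21 and 0.53 in whole flies (0.94 ± 0.255, limma adjusted p 0.00236), LysE 0.68, 0.43, 2.08 and 0.52 (0.93 ± 0.215, limma adjusted p 0.000523) and LysS 0.67, 0.14, 1.79 and 0.52 (0.78 ± 0.239, limma adjusted p 0.0064). Drs read 0.41, 0.40, 1.70 and 0.46 (0.74 ± 0.241, limma adjusted p 0.0101). All arrays lay above 0 for these 4 genes, and array 2a stood more than 1 log2 unit above the rest. Without array 2a the count was 8 of 20 (56.1% of all elements), 2 higher and 6 lower. LysE at 0.53 (limma adjusted p 0.0367) and PGRP-LE at 0.26 were then higher, while LysX at 0.52, LysS at 0.45, Drs at 0.48, Def at 0.48, PGRP-SC2 at 0.22 and the 2-gene element at 0.28 were not called. Lower were BomBc2 at -1.24 and -0.86, BomS4 at -0.73, BomS2 at -0.65, GNBP3 at -0.53 and PGRP-LB at -0.32, while BomBc3 at -0.47 was not called. With arrays scaled to the same spread, 6 elements were called in whole flies, 2 higher and 4 lower (40.6% of all elements called). Midgut markers were higher in whole females too, 9 of 11 of them, with a median of 0.98.

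PGRP-LB, whose amidase clears peptidoglycan and limits Imd signalling, turned its sign between the settings. In whole flies it read -0.31, -0.30, -0.18 and -0.39 (-0.29 ± 0.056, limma adjusted p 4.64e-05), below 0 on every array, and in carcasses 0.20, 0.09, 0.23 and 0.42, above 0 on every array. The 2 sets of arrays did not overlap. The test of the difference itself, whole flies minus carcasses, gave -0.53 ± 0.079 (limma adjusted p 7.69e-06), and leaving out any 1 array kept it between -0.48 and -0.57 and called. In all, 10 of 20 elements were lower in whole flies than in carcasses by this test and 0 were higher, where 35.9% of all elements differed, 17% higher and 18.9% lower. The others were LysX (-0.99), Mtk (-0.93), LysS (-0.87), LysE (-0.83), the 2-gene element (-0.82), BomS4 (-0.81), BomBc2 on its first element (-0.76), BomS2 (-0.71) and PGRP-SC2 (-0.69). Without array 4a, 1 element differed, without array 1a 2, without array 1b or 2b 3, and without array 2a 12. The shares of all elements in these fits are not given here, so a change over the whole array cannot be told apart. Midgut markers were lower by this test as well (8 of 11, median -0.92), as were 4 of 7 fat body markers (median -0.96), with 0 higher in both lists, and their part in the result was not tested. With arrays 2a and 4a both left out, an alternative chosen after the data were seen, 9 elements were lower, where 37.6% of all elements differed. That fit put 2 elements higher and 9 lower in whole flies, where 58.6% of all elements were called, and 7 higher and 2 lower in carcasses, where 8.55% were, the lower 2 being both BomBc2 elements (-0.41 and -0.43).

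**Figure D2:**
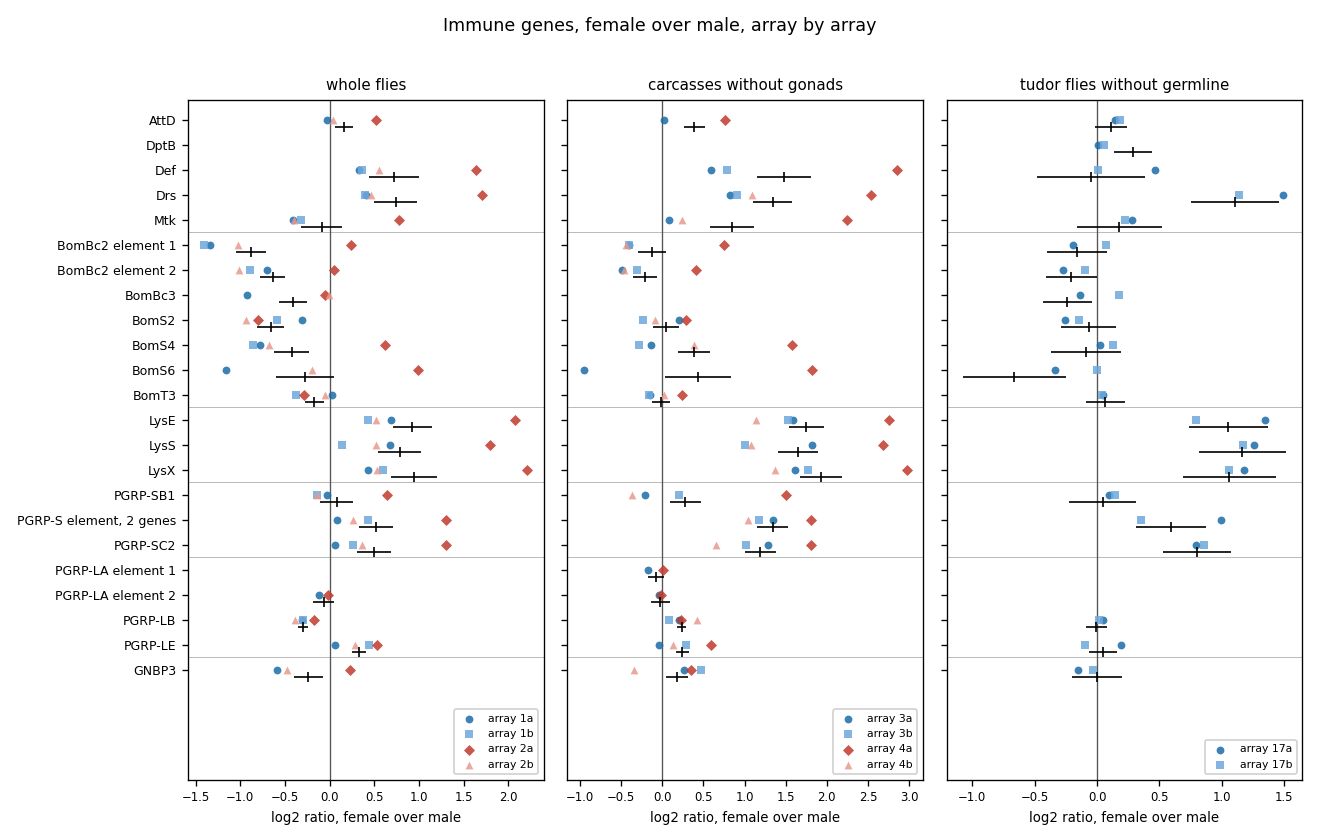
Log2 ratio of female over male (horizontal axis) for each element (rows) on every array, in whole flies, in carcasses and in tudor flies. Points are single arrays and black ticks with bars the fitted value ± SE; arrays 2a and 4a (red diamonds) lie to the right of the others for most peptides and lysozymes, for example at 2.21 and 2.97 for LysX.

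Among tudor flies, which lack the germline, 0 of 21 elements were called between females and males, where 1.12% of all elements were called by limma, 0.261% higher and 0.86% lower, and 6 had an unadjusted p under 0.05. These were LysS at 1.16 ± 0.349 (1.26 and 1.17 on arrays 17a and 17b, limma adjusted p 0.155), Drs at 1.11 ± 0.353 (1.49 and 1.14, limma adjusted p 0.214), LysX at 1.06 (1.18 and 1.05), LysE at 1.05 (1.34 and 0.80), PGRP-SC2 at 0.80 (0.80 and 0.86) and the 2-gene element at 0.60 (0.99 and 0.35). Both arrays lay above 0 for all 6. Both had the same dye orientation, so a fitted value, which removes a dye effect estimated from other arrays, can lie off the 2 array values. With arrays scaled to the same spread 7 elements were called (26.6% of all elements), from arrays 17a and 17b alone 4 (2.52%), and without arrays 2a and 4a in the shared variance 4 (1.49%). The Bomanin elements lay between -0.66 and 0.07. Midgut markers had a median of 0.88 and 0 of 11 were called. Of 19 elements, 0 differed between tudor flies and carcasses in their sex ratio (limma, 0.161% of all elements, 0.0663% higher and 0.0947% lower, and 3 with an unadjusted p under 0.05), a difference that had a median of -0.28.

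The gonads were compared with the rest of the body to ask where the genes are expressed. In ovary against female carcass, 17 of 22 elements were lower in ovary and 0 higher, where 48.3% of all elements were called, 22.9% higher and 25.4% lower. The median was -1.26. In testis against male carcass, 12 of 21 were lower and 0 higher, where 52.0% of all elements were called, 25.7% higher and 26.3% lower. The median was -0.61. The lysozymes, Drs, BomBc2, BomS2, BomS4 and GNBP3 were lower in both gonads.

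Drs read -2.29, -3.19, -2.77 and -3.25 (log2, ovary over female carcass) on arrays 7a, 7b, 8a and 8b, a fitted -2.87 ± 0.241 (limma adjusted p 5.62e-11) or 7.33-fold. In testis against male carcass it read -1.41 and -1.17 on arrays 9 and 10 (-1.29 ± 0.353, limma adjusted p 0.00286). The 2 sets of arrays did not overlap, but their difference was not tested, since each has its own carcass as reference. Def (-0.92) and Mtk (-0.89) were lower in ovary than in carcass, and Def was not tested in testis, where Mtk was not called (-0.34). AttD was not called in either gonad (-0.12 and 0.27).

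BomS2 read -1.45, -2.26, -2.44 and -2.31 in ovary against carcass (-2.12 ± 0.153, limma adjusted p 6.22e-13) and -1.71 and -2.01 in testis against carcass (-1.86 ± 0.224, limma adjusted p 3.13e-08). All 6 arrays were far below 0. BomBc2 was lower by 1.90 and 1.62 in ovary on its 2 elements and by 1.46 and 1.42 in testis. BomS4 was lower by 1.76 in ovary and by 1.42 in testis. GNBP3, the glucan sensor, was lower by 1.59 ± 0.199 in ovary (n = 2 arrays, -1.46 and -1.72) and by 1.36 ± 0.199 in testis (-1.35 and -1.37). BomBc3, BomS6 and BomT3 were called in neither, with values from -0.36 to -0.21.

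The lysozymes were measured on 2 of the 4 ovary arrays, 7a and 8a. LysX read -3.08 and -3.07 (-3.08 ± 0.373, limma adjusted p 5.24e-08), which is 8.44-fold lower in ovary, LysE -2.47 and -2.42, and LysS -2.36 and -2.32. In testis they were less far below carcass, at -0.94 for LysX, -0.79 for LysE and -1.02 for LysS. PGRP-SC2 was lower in ovary by 1.98 ± 0.273 (-2.01 and -1.95), and in testis it read -0.63 and -0.59 and was not called (limma adjusted p 0.062). The 2-gene element was lower by 1.73 in ovary and not called in testis (-0.43). PGRP-SB1 was lower in both, by 0.80 and 0.84. PGRP-LB was lower in both, by 0.52 and 0.24, PGRP-LE was lower in ovary (-0.31) and not called in testis (0.11), and PGRP-LA was lower on its second element (-0.49 and -0.61) but not called on its first (-0.04 and -0.19). In testis LysX was at -0.96 without array 9 and at -0.93 without array 10. Each value rests on 1 array, which gives no spread of its own. For ovary, leaving out array 7a or 8a takes the lysozymes to 1 array, which was not tested. The lowest ovary count with an array left out was 8, and the share of all elements in that fit is not given here. Midgut markers were lower in ovary (11 of 11, median -3.02) and in testis (10 of 11, median -1.39), and fat body markers were lower in ovary (8 of 8, median -2.27), while in testis 2 of 7 were higher and 4 lower. Blood cell markers were lower in both (5 of 5 and 5 of 6). Their part in the results was not tested.

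Set directly against testis, ovary had 7 of 15 elements lower and 0 higher, where 65.6% of all elements were called, 34.1% higher and 31.5% lower. LysX read -0.93, -0.99, -0.63 and -0.97 on arrays 5a, 5b, 6a and 6b (-0.88 ± 0.255, limma adjusted p 0.00325), LysE was at -0.76 and LysS at -0.64. GNBP3 (-0.69), the first BomBc2 element (-0.69), BomS2 (-0.39) and PGRP-LB (-0.18) were lower as well. The second BomBc2 element, at -0.23, was not called. All 4 arrays were below 0 for the lysozymes, both BomBc2 elements and PGRP-LB, and 3 of 4 for BomS2. With arrays scaled to the same spread 1 element was called (44.8% of all elements). Leaving out any 1 array left 4 to 6, with the shares of all elements not given here.

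**Figure D3:**
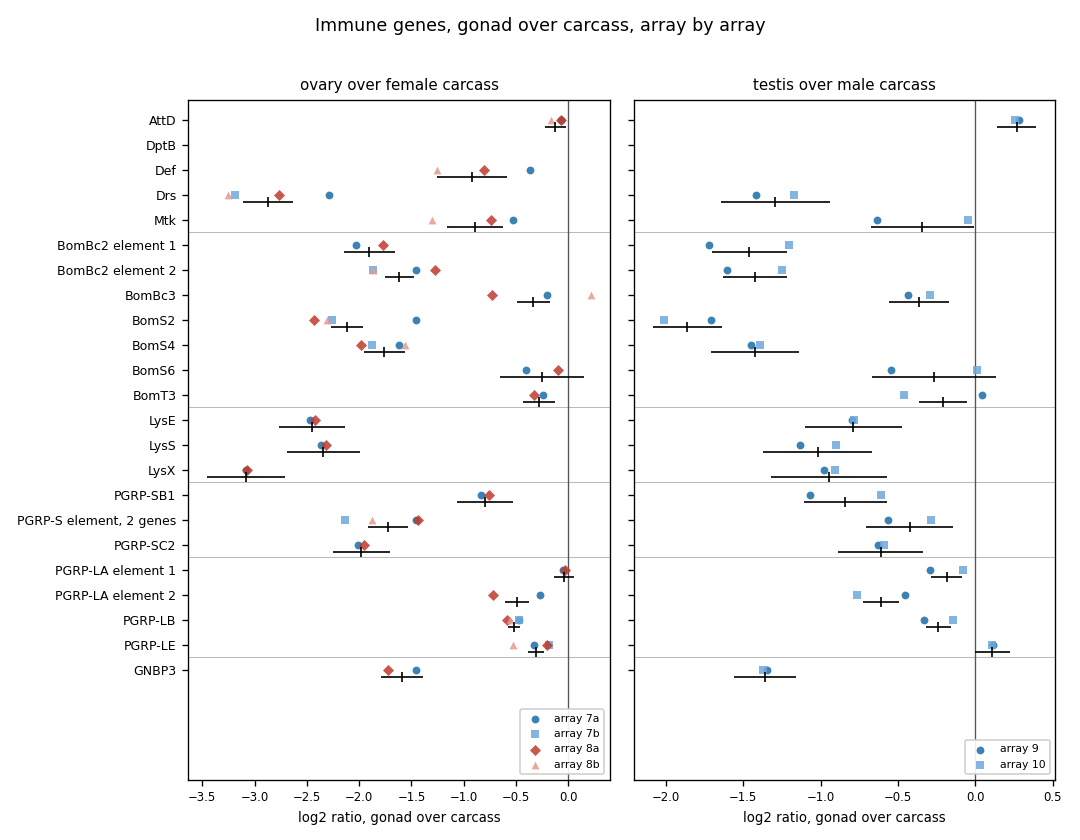
Log2 ratio of ovary over female carcass (left) and testis over male carcass (right) for each element on every array, with the fitted value ± SE in black. LysX, at -3.08, and Drs, at -2.87, lie farthest to the left in ovary, followed by LysE, LysS and BomS2, and BomS2 does in testis, at -1.86.

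Whole tudor flies were also set against each gonad. Of the elements tested, 12 of 22 were higher in tudor males than in testis, where 30.1% of all elements were called, 14.2% higher and 15.9% lower. Against ovary, 12 of 19 were higher in tudor males, where 28.7% were called, 15.2% higher and 13.5% lower. In tudor females 13 of 17 were higher than in testis (35.7% called, 16.8% higher and 18.9% lower) and 11 of 18 higher than in ovary (23% called, 11.9% higher and 11.1% lower). In all 4 comparisons 0 elements were lower, and the medians were 0.94, 0.92, 1.14 and 1.36. Midgut markers were higher in 11 of 11 cases in each of the 4 (medians 1.34, 1.83, 2.30 and 2.63 in the same order). Fat body markers were higher in tudor females over testis (8 of 8) and over ovary (7 of 7), and in tudor males 5 of 8 were higher than in testis and 4 of 8 higher and 1 lower than in ovary. Their part in the results was not tested.

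LysX and Drs were higher over both gonads in tudor females than in tudor males by value. LysX was at 1.37 in tudor males over testis (1.55 and 1.07 on arrays 18a and 18b), 2.19 in tudor males over ovary (2.68 and 1.59), 2.75 in tudor females over testis (2.98 and 2.42) and 3.06 in tudor females over ovary (3.58 and 2.43). Drs was at 1.21, 1.91, 2.39 and 2.95 in the same order. PGRP-SC2 was at 1.31, 1.64, 2.13 and 2.16. BomS2 lay closer together, at 1.68, 2.09, 1.73 and 1.94, and so did BomS4, at 1.34, 1.57, 1.20 and 1.60. These comparisons share gonad or tudor RNA, and differences between them were not tested. In each of the 4 both arrays had the same dye orientation, so fitted values can lie off the array values. Drs read 0.59 and 1.415 on arrays 18a and 18b and 1.845 and 1.555 on arrays 19a and 19b. It read 2.075 and 2.29 on arrays 20a and 20b and 2.94 and 2.555 on arrays 21a and 21b. BomBc3 was measured against tudor males only and was 0.93 and 0.92 higher there than in testis and ovary. Its arrays read 0.79 and 0.56 over testis and 0.77 and 0.56 over ovary, all below the fitted values. PGRP-LE was called in tudor females over testis (0.34) and not in the other 3, and AttD, Mtk, BomT3, PGRP-LA and PGRP-LB in none of the 4. Without array 18a, LysX was at 1.12, LysE at 1.15 and LysS at 1.07 in tudor males over testis. Each of these values rests on 1 array, which gives no spread of its own.

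Whole wild-type flies against tudor flies of the same sex compare bodies with and without germline, in different backgrounds. In females, 12 of 16 elements were lower in the wild type and 0 higher, where 29.3% of all elements were called, 15.0% higher and 14.3% lower, with a median of -0.77. In males, 0 of 22 were called by limma, where 6.87% of all elements were, 5.7% higher and 1.17% lower, and 5 had an unadjusted p under 0.05. PGRP-SC2 read -1.82 and -1.86 on arrays 24 and 25 (-1.84 ± 0.273, limma adjusted p 1.92e-05), 3.59-fold lower in wild-type females, and the 2-gene element -1.79 and -1.82 (-1.81 ± 0.281, limma adjusted p 2.05e-05). These were the 2 lowest values of the group in that comparison. LysX was at -1.48 (-1.66 and -1.30), LysS at -1.40, LysE at -1.37 and Drs at -1.28 (-1.22 and -1.34). GNBP3 was at -0.94, BomS2 and the second BomBc2 element at -0.77, the first at -0.73, PGRP-SB1 at -0.71 and PGRP-LB at -0.24. Both arrays lay below 0 for all 12.

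In males the same genes were not called, and some of them lay below 0 on both arrays as in females. LysE was at -0.53, LysS at -0.555 and GNBP3 at -0.30. BomBc2 was at 0.505 and 0.235, BomS2 at 0.125, PGRP-SB1 at 0.045 and PGRP-LB at 0.0275. PGRP-SC2 was at -0.79 ± 0.273 (-1.16 and -0.41 on arrays 22 and 23, limma adjusted p 0.0909), the 2-gene element at -0.75 (-0.89 and -0.61), Drs at 0.27 (-0.28 and 0.82), LysX at -0.08 (-0.82 and 0.66) and Mtk at 0.71 (0.17 and 1.25). The arrays straddled 0 for Drs, LysX, the second BomBc2 element, BomS2, PGRP-SB1 and PGRP-LB. The difference between the sexes in this contrast was not tested. With arrays scaled to the same spread 8 elements were called in males, 2 higher and 6 lower (23% of all elements called), and without arrays 2a and 4a 3 were, 2 higher and 1 lower (7.76%). In females LysX was at -1.23 without array 24 and at -1.72 without array 25, and Drs at -1.12 and -1.43. Each of these values rests on 1 array, which gives no spread of its own. Fat body markers were lower in wild-type than in tudor females (7 of 8, median -1.52), as were blood cell markers (7 of 7, median -0.78) and midgut markers (8 of 11, median -0.94), while ovary markers were higher (8 of 10, median 0.93). In males 4 of 8 fat body, 1 of 6 blood cell and 1 of 11 midgut markers were lower. Their part in the results was not tested.

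The sex ratio of whole flies can also be reached through the tudor flies, by adding wild-type over tudor females and tudor females over tudor males and subtracting wild-type over tudor males. For 16 members with all values the direct ratio and this sum differed by a median of 0.54, against 0.185 over 9509 elements. LysX was at 0.94 directly and at -0.33 by the sum, Drs at 0.74 and -0.44, the 2-gene element at 0.52 and -0.46, and PGRP-SC2 at 0.50 and -0.26. BomBc2, BomS2 and BomS4 were negative by both routes: the first BomBc2 element was at -0.88 and -1.39, the second at -0.64 and -1.21, BomS4 at -0.42 and -1.09 and BomS2 at -0.66 and -0.96. BomT3, on 3R, was at -0.17 and 0.25, and PGRP-LB was at -0.29 and -0.27. Array 2a enters the direct ratio and not the sum. Whether it accounts for the gap was not tested.

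**Figure D4:**
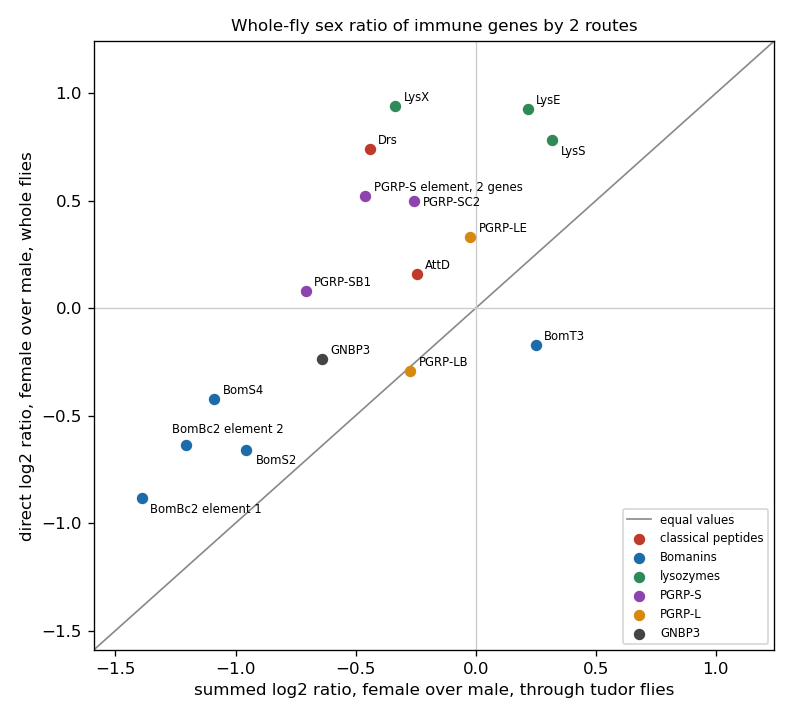
Whole-fly log2 ratio of female over male for 16 members, measured directly (vertical axis) against the sum over tudor flies (horizontal axis), coloured by kind of gene. Points above the grey line have a higher direct value; LysX and Drs lie far above it at 0.94 and 0.74 against -0.33 and -0.44, and PGRP-LB lies close to it.

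The sex determination mutants were set against wild-type flies and against each other. Only females and XX tra2 flies share the number of X chromosomes. Males against XX dsx flies and XX against XY tra2 flies differ in it. Wild-type females against XX tra2 flies, both XX, had 4 of 20 elements higher and 9 lower, where 55.0% of all elements were called, 27.2% higher and 27.7% lower. The median was -0.38. The lysozymes and Def were higher in females, and BomBc2, BomS2, BomS4, GNBP3, the 3 short recognition elements tested and PGRP-LB were lower.

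BomBc2 read -1.09, -1.21, -1.62 and -1.34 on its first element in arrays 11a, 11b, 12a and 12b (-1.31 ± 0.165, limma adjusted p 9.34e-08), and -0.90, -1.27, -1.59 and -1.50 on its second (-1.32 ± 0.142, limma adjusted p 3.45e-09). All 8 values were below -0.8. BomS2 read -0.26, -0.94, -1.90 and -1.06 (-1.04 ± 0.153, limma adjusted p 9.6e-07) and BomS4 was lower by 0.66. GNBP3 read -0.51, -0.59, -1.53 and -1.01 (-0.91 ± 0.136, limma adjusted p 2.69e-06). PGRP-SC2 was lower by 0.85, PGRP-SB1 by 0.53, the 2-gene element by 0.50 and PGRP-LB by 0.30. For all of these every array was below 0. PGRP-SB1 and the 2-gene element lost their calls without array 12a and without array 12b, and BomS4 lost its call without array 12a.

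LysX read 0.61, 1.00, 0.62 and 0.88 in females over XX tra2 (0.78 ± 0.255, limma adjusted p 0.011), LysS was at 0.64 and LysE at 0.52. Every array was above 0 for the 3 lysozymes. Without array 11b all 3 lost their call (limma adjusted p 0.0616 for LysX, 0.122 for LysS and 0.18 for LysE), and without array 11a or 12b LysS and LysE did. Def was higher by 1.26 ± 0.430 on 2 arrays (1.37 and 0.59, limma adjusted p 0.0238). These 2 arrays, 11a and 11b, had the same dye orientation, and their mean was 0.98. Drs, at -0.42 with all 4 arrays below 0, was not called. Of 11 midgut markers, 1 was higher here (median 0.09, from -0.44 to 0.47), while 4 of 5 blood cell markers were lower (median -0.63), and of 8 fat body markers 3 were higher and 5 lower. Their part in the results was not tested. With arrays scaled to the same spread, 8 elements were called in this comparison, 1 higher and 7 lower (44.4% of all elements called).

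Wild-type males against XX dsx flies had 9 of 21 elements lower and 0 higher, where 25.1% of all elements were called, 14.4% higher and 10.7% lower, with a median of -0.24. LysE read -1.40, -1.21, -1.53 and -1.66 on arrays 13a, 13b, 14a and 14b (-1.45 ± 0.215, limma adjusted p 3.65e-06), LysX -1.35, -1.30, -1.20 and -1.64 (-1.37 ± 0.255, limma adjusted p 9.76e-05) and LysS -0.96, -1.0, -1.43 and -1.43 (-1.20 ± 0.239, limma adjusted p 0.000237). The 3 lysozymes were thus lower in males than in XX dsx flies on every array. PGRP-SC2 was lower by 0.91, the 2-gene element by 0.75, PGRP-SB1 by 0.75, BomS2 by 0.61, GNBP3 by 0.39 and PGRP-LE by 0.22. GNBP3 lost its call whichever 1 array was left out (-0.33 to -0.42), and PGRP-LE did without array 13a, 13b or 14b. BomBc2 was not called, at 0.01 and -0.14, and neither was Drs, at -0.63 (limma adjusted p 0.0536). Midgut markers were lower in males too (10 of 11, median -0.82), as were fat body markers (6 of 8, median -1.23), and their part in the results was not tested.

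XX tra2 against XY tra2 flies had 1 of 17 elements higher and 0 lower, where 19.2% of all elements were called, 4.44% higher and 14.8% lower. The element called was PGRP-LB (0.18, 0.29, 0.26 and 0.01 on arrays 15a, 15b, 16a and 16b, fitted 0.19 ± 0.056, limma adjusted p 0.014), and leaving out array 15a, 15b or 16a ended that call (0.17, 0.14 and 0.18). By unadjusted p, 3 elements were under 0.05. Array 15b went against the others for the lysozymes and the PGRP-SC elements: LysX read 1.02, -0.91, 0.53 and 0.24, PGRP-SC2 0.64, -0.28, 1.04 and 0.65, and the 2-gene element 0.78, -0.56, 0.97 and 0.87. Without array 15b the 2-gene element was at 0.86 (limma adjusted p 0.00121), PGRP-SC2 at 0.79 (0.00456) and LysS at 0.71 (0.0457), all called. Drs split by number, at -0.29 and -1.03 on arrays 15a and 15b and 1.18 and 0.88 on arrays 16a and 16b, which have the opposite dyes. Of 11 midgut markers 6 were higher in XX tra2 (median 0.59). BomBc2, at 0.02 and -0.08, BomS2 at -0.08 and BomS4 at -0.12 were not called.

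**Figure D5:**
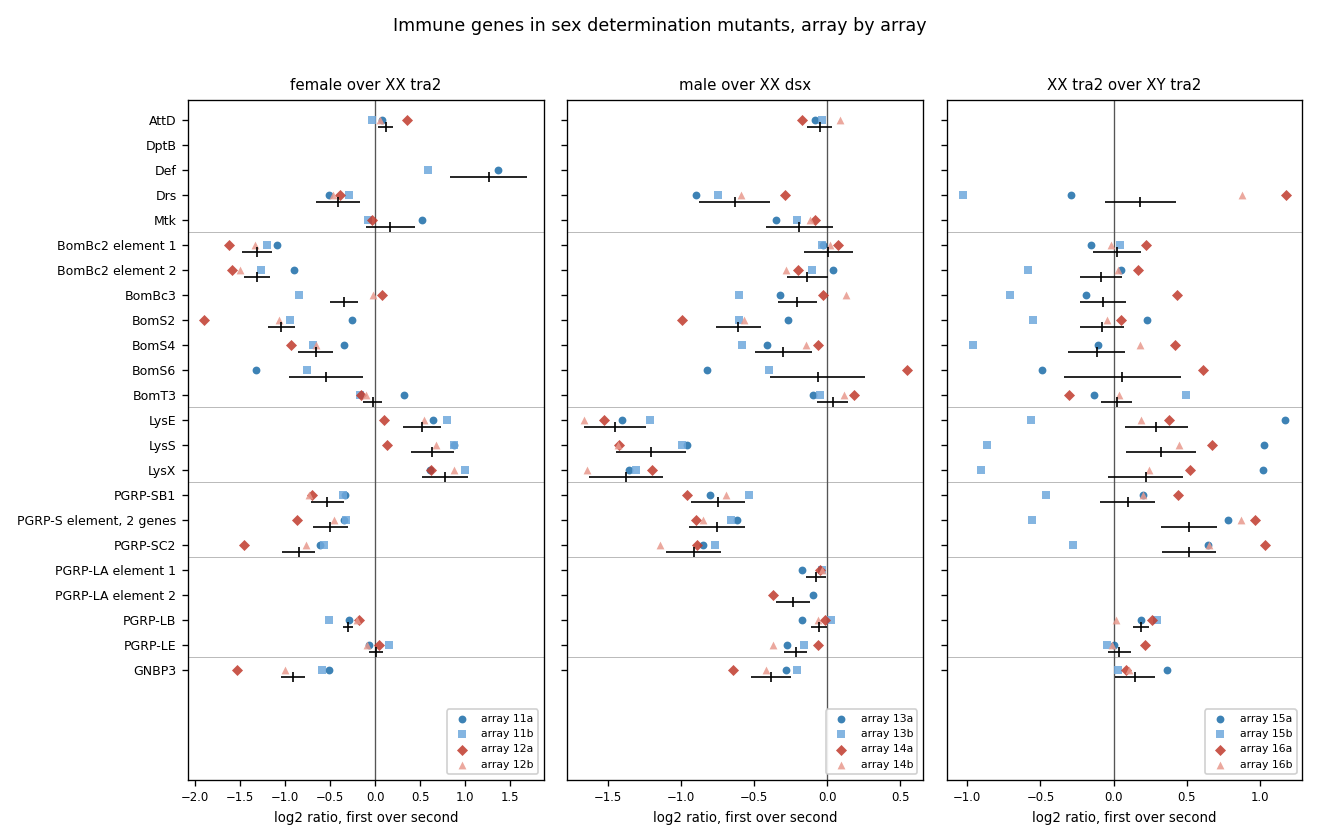
Log2 ratio of each element on every array for wild-type female over XX tra2, wild-type male over XX dsx and XX tra2 over XY tra2, with the fitted value ± SE in black. The lysozymes lie right of 0 in the first panel, left of -0.9 on every array in the second and on both sides of 0 in the third, where array 15b (light blue squares) is at -0.91 for LysX.

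Read across comparisons, each lysozyme kept the order of the others. Over 42 arrays, Pearson's r was 0.989 between LysS and LysE and 0.984 between LysE and LysX, and over 39 arrays it was 0.962 between PGRP-SC2 and the 2-gene element. The 2 BomBc2 elements had an r of 0.954 over 42 arrays, and BomS2 one of 0.941 with the second of them over 44. GNBP3 was closest to BomS2 (0.925 over 39 arrays) and Drs to LysX (0.920 over 39). These values are descriptions, since arrays share RNAs and repeat comparisons, and for the lysozymes and the PGRP-SC elements the probes may share RNA as well. PGRP-LA lay between -0.61 and 0.35 on its 2 elements. Only the second was called, lower in ovary (-0.49) and in testis (-0.61) than in carcass. DptB was measured on 10 of the 44 arrays and tested in 3 comparisons (-0.11 to 0.29), not called in any, and PGRP-SB2 on 4 arrays and tested in none. For AttD, measured on 35 arrays, 1 call was made.

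The other genes of the Toll and Imd pathways and of the wider immune response were read from a list of 69 symbols, 35 of which were on the arrays; those given with values below were picked after these were seen. In carcasses 1 of 33 was higher in females, the protease gene spirit at 0.38, and 0 lower, where 16.6% of all elements were called. In whole flies 7 of 32 were higher in females and 7 lower, where 55.4% of all elements were called. The higher ones included cact at 0.66, spz at 0.62, Tl at 0.61, tub at 0.52 and pll at 0.38, which encode the Toll receptor, its ligand and their cytoplasmic partners and are also known from the maternal patterning of the embryo. The lower ones included Tsf1, a transferrin gene, at -0.90, Tep4 at -0.86, Dif, the adult Toll transcription factor, at -0.66 and SPE, the protease that processes the Toll ligand, at -0.64. In females over XX tra2 the counts were 9 higher and 13 lower of 32 (55.0% of all elements called), with Dif at -0.92 and SPE at -0.85.

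In ovary against female carcass 4 pathway genes of 33 were higher and 17 lower, and in testis against male carcass 3 of 32 were higher and 17 lower, where 48.3% and 52.0% of all elements were called. Tsf1 was at -2.42 and -1.66 in these 2 comparisons, nec, a serpin that restrains Toll activation, at -1.37 and -1.43, Dif at -1.24 and -1.10, SPE at -1.05 and -1.18, pirk, a brake on Imd, at -1.07 and -0.87 and Rel, the Imd transcription factor, at -0.84 and -0.93. Duox, an oxidase gene of the gut, was higher in both gonads, at 0.88 and 0.90. In wild-type over tudor females 3 of 31 were higher and 13 lower (29.3% of all elements called), among them Tep4 at -1.16, Dif at -0.88 and SPE at -0.85. In wild-type over tudor males 1 of 34 was higher and 0 lower (6.87% of all elements called). In males over XX dsx 1 of 33 was higher and 5 lower, where 14.4% of all elements were higher and 10.7% lower. In XX over XY tra2 flies 6 of 32 were higher and 2 lower, where 4.44% of all elements were higher and 14.8% lower. In tudor females over tudor males 0 of 29 were called, where 1.12% of all elements were.

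LysRS, chosen by its letters alone, was higher in females than in males (1.08 ± 0.107, limma adjusted p 1.26e-09), in female than in male carcass (0.56), in ovary than in testis (1.03) and in ovary than in female carcass (0.75), the opposite direction to the lysozymes in both gonad comparisons. It was lower in tudor females than in ovary (-0.67) and in tudor males than in ovary (-0.68). It was not called in testis over male carcass (0.23) or in tudor females or males over testis (-0.18 and -0.09).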

How the data were processed

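The deposited tables hold 1 log ratio per spot, taken as log2 values made by the authors from 2-colour scans of 2 slides per array, per the labels' protocols; 200 ng of mRNA was labelled per channel, while the sources used here give neither background correction nor normalization nor genome build. Duplicate spots were averaged, each array was centred on its median, and 9626 first-slide values of arrays 7b and 8b were left out. limma 3.58.1 (R 4.3.3) fitted 1 coefficient per comparison over 44 arrays, a dye coefficient per element (called for 3560 of 14804) and the hybridisation number as a random block (correlation -0.0671), with empirical Bayes variances. Tests needed values on 2 or more arrays, and p-values were adjusted over all elements of a comparison. On simulated data, 96.4% of log2 changes of 1 were recovered among 10755 elements of the carcass comparison, and 90.9% among 10459 of the tudor one. The simulated noise was independent, equal on every array and without outlying arrays, for elements measured on most arrays. LysX, Drs and LysS had residual SDs of 0.53, 0.50 and 0.50, where the median over all elements was 0.198. The share recovered at such SDs was not taken. All members matched RefSeq by gene ID (24 of 24 elements with 1 gene), and 12586 elements carry 1 gene symbol and 73 several. The members and gene lists were chosen with earlier results of these data known. Members are described with values where they were called at an absolute log2 ratio of at least 1 in a comparison (the 5 highest where fewer were), and the rest to complete each kind of gene. Alternatives were: independent arrays, no dye coefficient, no centring, arrays scaled to 1 spread, the first spot only, elements on all 44 arrays, the comparison's own arrays, other treatments of arrays 7b and 8b, and leaving out each array. The number of arrays limits the precision. Tables were handled in Python 3.11.15 with pandas 2.3.3 and numpy 2.4.6.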

Additional observations from a re-analysis of the deposited data

Results flagged for a closer look

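In whole flies, array 2a lay far from the other 3 arrays of female over male for 4 genes: LysX at 2.21 (others 0.43 to 0.60), LysE at 2.08 (0.43 to 0.68), Drs at 1.70 (0.40 to 0.46) and Def at 1.64 (0.33 to 0.55). In carcasses array 4a did so for Drs, at 2.54 against 0.83 to 1.09. Of 39 results on 4 arrays that were checked, 5 had such an array, where chance gives about 1 in 20. Of these 5, 4 lie on array 2a, and all 39 were picked because they were called. They are not independent, so that rate is no test of an excess. The values without these arrays stand beside the results above.

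The sex ratio differed between whole flies and carcasses for 10 elements, by the limma test of the difference itself (whole minus carcass). The differences were -0.99 for LysX, -0.93 for Mtk, -0.87 for LysS, -0.83 for LysE, -0.82 for the 2-gene PGRP-S element, -0.81 for BomS4, -0.76 for the first BomBc2 element, -0.71 for BomS2, -0.69 for PGRP-SC2 and -0.53 for PGRP-LB. Over all elements, 35.9% differed by this test. LysRS, at 0.52, differed in the other direction.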

How the results depend on the processing

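Counts of members called are given by alternative, where they moved by over 1.5 times. The share of all elements called stands in brackets where it was taken. Counts from fits that leave a comparison with 1 array are not given. With arrays scaled to the same spread they were 6 in female over male (40.6%) and 8 in female over XX tra2 (44.4%). Scaling gave 3 in XX over XY tra2 (29.5%), 8 in male over tudor male (23%) and 1 in ovary over testis (44.8%). It also gave 6 in testis over male carcass (36.3%) and 17 in tudor female over ovary (33.8%). The rest were 7 in tudor female over tudor male (26.6%), 6 for whole minus carcass (16%) and 2 for tudor minus carcass (16.5%). Without scaling, 35.9% of all elements were called for whole minus carcass and 0.161% for tudor minus carcass. Only 10 members were measured on all 44 arrays, so fewer elements were tested. Of these, 6 were called in carcasses (17.4%), 8 in female over XX tra2 (51.4%), 9 in ovary over female carcass (50.0%) and 7 in testis over male carcass (44.5%). Called too were 6 for whole minus carcass (31.6%), 8 in tudor female over testis (29.1%), and 7 each in tudor male over ovary (30.2%) and over testis (26.8%). From the comparison's own arrays they were 8 in female over male (32.6%), 2 in carcasses (0.915%), 9 in ovary over female carcass (52.7%) and 4 in ovary over testis (52.1%). In that fit they were 0 in XX over XY tra2 (11.7%), 4 in tudor female over tudor male (2.52%) and 2 for whole minus carcass (13.8%). That fit was not run for testis over male carcass or for wild-type over tudor flies, where 2 arrays and a dye coefficient leave no residual degrees of freedom. The fit without arrays 2a and 4a was chosen after the data were seen. It called 3 in XX over XY tra2 (21.8%), 4 in tudor female over tudor male (1.49%) and 3 in male over tudor male (7.76%). With the first spot of each pair, 0 were called in XX over XY tra2 (17.7%). Leaving out 1 array gave 8 to 13 in female over male, 7 to 11 in carcasses and 1 to 12 for whole minus carcass. It gave 4 to 6 in ovary over testis, 8 to 17 in ovary over female carcass and 0 to 3 in XX over XY tra2. Of all elements, 56.1% were called in female over male without array 2a and 7.76% in carcasses without array 4a. The shares in the other fits of this kind are not given here. Taking the first-slide values of arrays 7b and 8b as deposited gave 9 in ovary over female carcass and turned LysX to 0.25, LysE to 0.40, LysS to 0.41, PGRP-SC2 to 0.10, the first BomBc2 element to 0.18 and GNBP3 to 0.028, since these values run opposite to those of 7a and 8a; turning their sign gave 17. Except there, the cause was not tested. Of 112 results for named members, independent arrays ended 4 calls, no dye coefficient 3, no centring 1 and scaled arrays 17. Leaving out an array ended 70 of 368 calls, and the comparison's own arrays 22 of 91. No paired analysis was possible because array numbers are not shared between comparisons. Comparisons on 2 arrays and elements measured on few arrays have the widest errors.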

Other observations

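On the 2 arrays with RNA of mixed sexes in both channels, the members lay near 0: between -0.29 and 0.26 on array 27a (23 members) and between -0.30 and 0.09 on array 27b (18 members).

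The ovary over testis ratio can be reached through the carcasses as well. For 15 members the direct ratio and that sum differed by a median of 0.22, against 0.148 over 10622 elements. LysS was at -0.64 directly and at 0.33 by the sum, LysE at -0.76 and 0.09, and LysX at -0.88 and -0.20, while the first BomBc2 element was at -0.69 and -0.57. Through tudor males the sums were -0.63 for LysS, -0.71 for LysE and -0.83 for LysX, close to the direct values, and through tudor females -0.005, -0.19 and -0.31. GNBP3, at -0.69 directly on 2 arrays, was at -0.05 through carcasses, 0.16 through tudor females and 0.006 through tudor males.

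A dye coefficient was called for BomS6 (-0.50, limma adjusted p 0.0206) and BomBc3 (-0.26, limma adjusted p 0.00541) among the members, so the single-array values of these genes lean with the dye.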
